A study of Homo sapiens with 6 samples.

Results

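The cleavage-polyadenylation machinery and the Integrator complex were examined as 36 genes named by symbol, 25 for the 3′ end machinery of messenger RNA and 11 for Integrator, out of 58735 genes in the count table. Each name matched 1 protein-coding row. The cells were SKOV3ip1, a human ovarian adenocarcinoma line of labelled genotype WT. One label calls the source tumors, but the protocols describe cultured cells, and these were transfected with 2 µg of siRNA by a cationic lipid reagent. The groups were 3 libraries of cells given BARD1 siRNA and 3 of cells given control siRNA, all collected 48 h after transfection. The labels number the libraries of a group as biological replicates without saying whether they were separate transfections on separate days, so p-values measure only the spread between these cultures, which may be technical. The sequence of the BARD1 siRNA is not known here, so effects of silencing BARD1 and effects of the siRNA itself cannot be told apart.

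Almost every human messenger RNA ends where its precursor is cut and a poly(A) tail is added. CPSF recognises the AAUAAA signal and holds the endonuclease CPSF3, CstF binds the U-rich or GU-rich sequence downstream, and the cleavage factors CF I and CF II help to choose and cut the site. Poly(A) polymerase then adds the tail, poly(A)-binding proteins coat it, and the exonuclease XRN2 degrades the RNA left behind the cut, which helps RNA polymerase II to terminate. Integrator is a related machine: its endonuclease module resembles CPSF2 and CPSF3, and it cuts the precursors of small nuclear RNAs and the nascent RNA of paused polymerases. BARD1, the partner of BRCA1, is known to bind CSTF1, the 50 kDa subunit of CstF, and the BRCA1, BARD1 and CstF complex is known to inhibit polyadenylation after DNA damage.

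BARD1 itself was at 5.91, 6.52 and 9.71 CPM (normalised counts per 1e6 counts) in BARD1 siRNA libraries, against 45.8, 37.8 and 49.2 CPM in control siRNA libraries. It was lower in every BARD1 siRNA library (log2 fold change −2.58, SE 0.14, edgeR adjusted p = 1.21e-15). Libraries held 16621108 to 17743404 gene counts, so 1 CPM stood for 16.6 to 17.7 reads before normalisation. Of 15271 genes tested in the table, 20.3% were called lower and 22.0% higher with BARD1 siRNA at an adjusted p under 0.05. The list of proliferation markers moved with the groups. All 10 fell, the summed level was 1706 to 1845 CPM in BARD1 siRNA and 3169.9 to 3362 CPM in control siRNA libraries, and its part in the results below was not tested. MKI67, the Ki-67 gene, had a log2 fold change of −0.95, TOP2A of −1.21, TYMS of −1.06 and PCNA of −0.69. Of 9 genes taken as markers of the line, KRT8, KRT18, KRT19, ERBB2, PAX8, EPCAM and MSLN were present, while WT1 and MUC16 were too low to test, with 20 and 13 counts over the BARD1 siRNA and 25 and 12 over the control siRNA libraries. Within that list 2 rose, PAX8 and KRT18, at log2 fold changes of 0.75 and 0.40, and 3 fell, KRT19 most at −0.60. Markers of leukocytes, endothelium, fibroblasts and erythrocytes summed to 8.12 to 9.85 CPM in BARD1 siRNA and 7.04 to 8.77 CPM in control siRNA libraries over 14 genes. PTPRC, CD3E, LYZ, HBB and HBA1 were at 0 in all 6 libraries.

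All 36 genes passed the filter on low counts, with no library under 174 counts for any of them. With BARD1 siRNA 12 fell and 1, INTS6, rose, while 23 did not pass the test. In either direction 13 of 36 were called, beside 42.3% of all tested genes. The share that fell was 33.3%, beside 20.3% of all tested genes. It was 28% (7 of 25) in cleavage-polyadenylation and 45.5% (5 of 11) in Integrator, and these shares were not tested against each other. Among the 8887 tested protein-coding genes with mean levels in the same range, 26.7% were called lower and 29.4% higher. The changes were small: the median log2 fold change was −0.07, beside −0.01 for all tested genes, and the largest, that of INTS8, was −0.63. The genes that fell stood in CstF (CSTF1 and CSTF2), CPSF (CPSF1, CPSF2 and CPSF3), CF I (NUDT21 and CPSF6) and Integrator (INTS5, INTS7, INTS8, INTS9 and INTS10). No gene of CF II, the poly(A) polymerases, the poly(A)-binding proteins or the termination factors passed. The 3 BARD1 siRNA libraries lay below all 3 control siRNA libraries for 14 of the 36, and above them for 1, where 24.7% and 25.8% of all tested genes did so. Of the 8887 protein-coding genes in the same range of levels, 2661 lay below and 2892 above without overlap. In RNA from whole cultures, fewer cells of a type or state and less RNA per cell cannot be told apart.

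**Figure D1:**
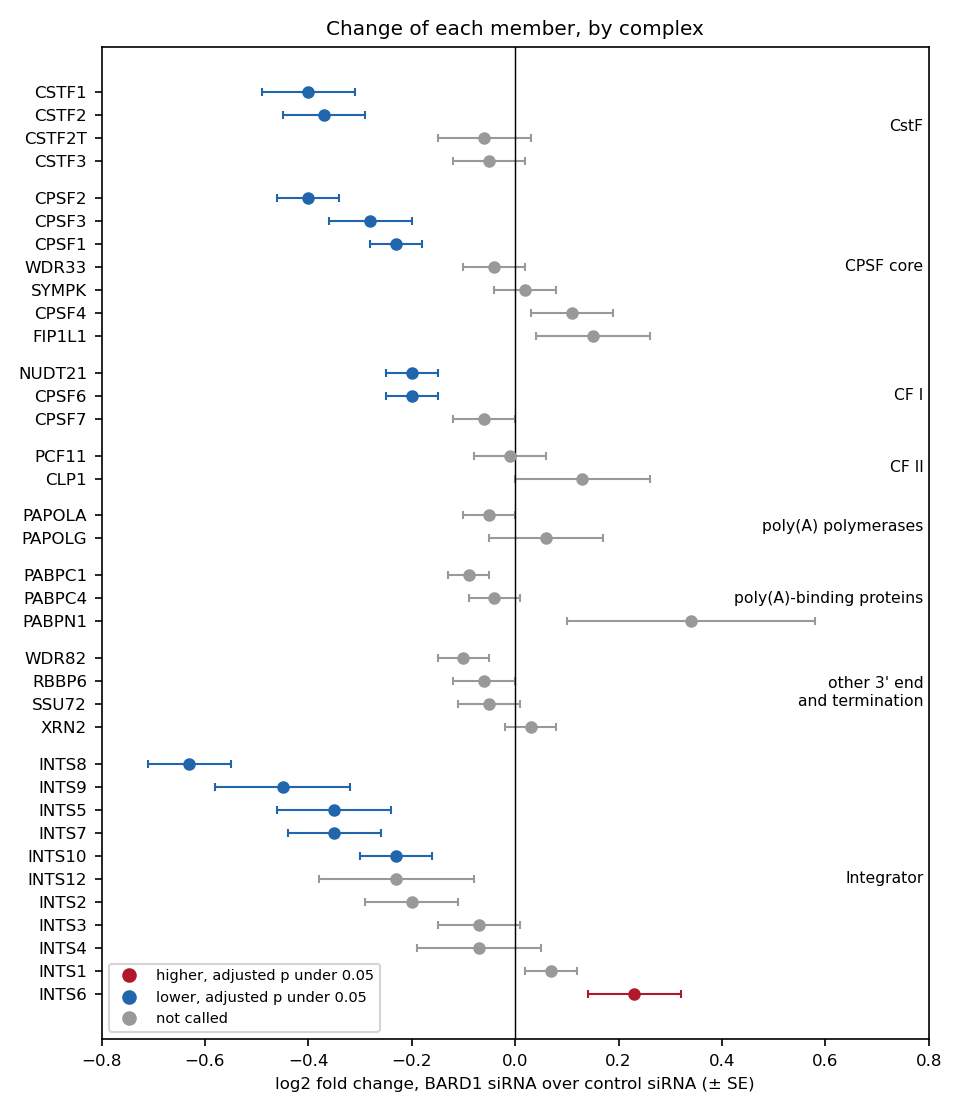
Log2 fold change of each of the 36 genes, BARD1 siRNA over control siRNA, with its standard error, grouped by complex. The 12 genes that fell (blue) lie between −0.63 and −0.20, and INTS6 (red) at 0.23 is the 1 gene that rose.

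CstF is a dimer of trimers whose subunits are CSTF1, CSTF3 and either CSTF2 or its paralog CSTF2T. CSTF1 (ENSG00000101138, GRCh38 chromosome 20, 56392371 to 56406369, plus strand), the subunit that BARD1 binds, had 31.7, 32.7 and 34.5 CPM in BARD1 siRNA libraries, against 47.5, 41.2 and 42.0 CPM in control siRNA libraries. The groups did not overlap. The level was 1.32-fold lower, at 33.0 ± 1.44 CPM with BARD1 siRNA and 43.6 ± 3.40 CPM with control siRNA (SD, n = 3 each; log2 fold change −0.40, SE 0.09, edgeR adjusted p = 1.55e-04). CSTF2 (ENSG00000101811, chromosome X, 100820359 to 100840932, plus strand), the 64 kDa subunit that touches the downstream element of the RNA, had 33.4, 36.1 and 35.8 CPM with BARD1 siRNA, against 46.6, 45.0 and 44.6 CPM with control siRNA. It too fell without overlap, by 0.37 on the log2 scale (SE 0.08, edgeR adjusted p = 2.61e-04). CSTF3, the 77 kDa scaffold of the complex, averaged 59.9 ± 4.10 CPM with BARD1 siRNA and 62.0 ± 0.835 CPM with control siRNA and did not pass (log2 fold change −0.05, edgeR adjusted p = 0.636).

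CSTF2T (ENSG00000177613, chromosome 10, 51695487 to 51699591, minus strand), the intronless copy of CSTF2, stood at 36.4, 38.7 and 35.8 CPM in BARD1 siRNA and 39.1, 37.8 and 38.7 CPM in control siRNA libraries, with overlapping groups and an edgeR adjusted p of 0.624. A ratio of 2 genes within a library does not depend on scaling between libraries, so 5 pairs of paralogs were compared in this way. Reads of CSTF2 and its copy may be exchanged where their sequences match. There were 0.917, 0.931 and 1.00 counts of CSTF2 per count of CSTF2T with BARD1 siRNA, against 1.19, 1.19 and 1.15 with control siRNA. Every BARD1 siRNA library thus had the lower ratio. The difference in the log2 ratio was −0.31, and the exact two-sided permutation test gave p = 0.100, the smallest that 3 against 3 libraries allow, or 0.25 when adjusted over the 5 pairs. The test therefore cannot pass the threshold at this size. CPSF6 and CPSF7 are the alternative large subunits of CF I. Their ratio was 0.971, 0.998 and 1.02 counts of CPSF6 per count of CPSF7 with BARD1 siRNA and 1.12, 1.11 and 1.05 with control siRNA, again without overlap (log2 difference −0.13, exact permutation p = 0.100, adjusted 0.25). The other three pairs overlapped between groups. The log2 difference was −0.12 for PAPOLA over PAPOLG, −0.04 for PABPC1 over PABPC4 and 0.21 for INTS6 over INTS6L, with adjusted p of 0.5, 0.5 and 0.333 in the exact permutation test. Single libraries moved these differences: PAPOLA over PAPOLG was at −0.01 without control siRNA replicate 1 and −0.21 without control siRNA replicate 3. INTS6 over INTS6L was at 0.11 without control siRNA replicate 3. PABPC1 over PABPC4 was at −0.02 without control siRNA replicate 3 or BARD1 siRNA replicate 3.

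**Figure D2:**
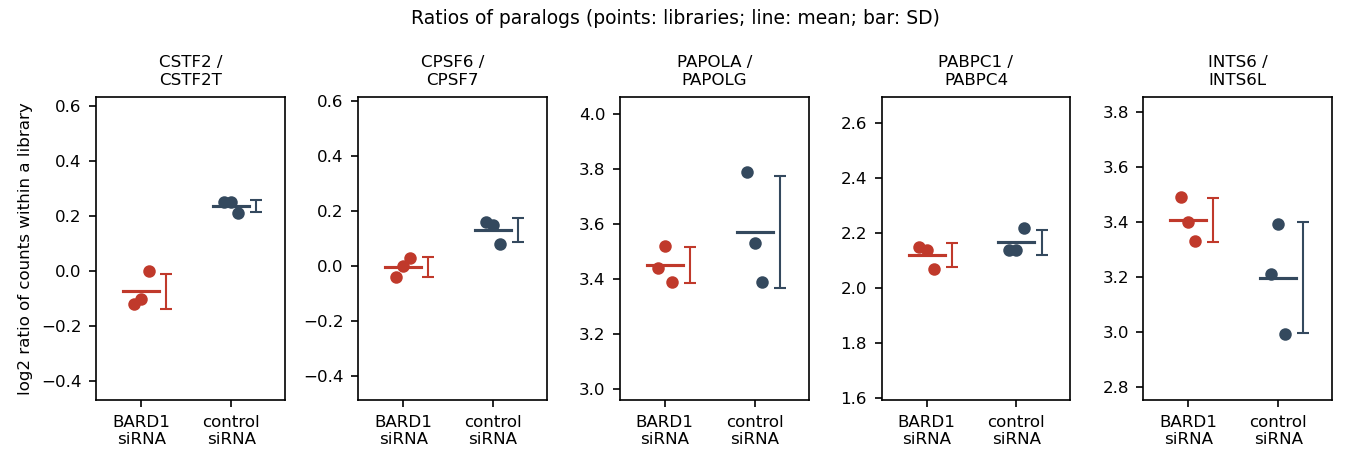
Log2 ratio of the counts of 2 paralogs within each library, for 5 pairs, with points for libraries, a line for the mean and a bar for the SD of 3 libraries. For CSTF2 over CSTF2T and CPSF6 over CPSF7 the BARD1 siRNA libraries lie below all control siRNA libraries, and the other panels overlap.

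CPSF consists of a part that reads the poly(A) signal (CPSF1, CPSF4, WDR33 and FIP1L1) and a part that cuts (CPSF2, CPSF3 and the scaffold SYMPK). The scaffold of the reading part, CPSF1 (ENSG00000071894), fell to 145, 144 and 142 CPM in BARD1 siRNA libraries, against 169.9, 174 and 162 CPM in control siRNA libraries (log2 fold change −0.23, SE 0.05, edgeR adjusted p = 4.99e-04). Its groups were separate. Its partners did not pass. WDR33 and CPSF4, which contact the AAUAAA hexamer, had log2 fold changes of −0.04 and 0.11, and FIP1L1, which recruits poly(A) polymerase, had 0.15. CPSF4 overlaps ATP5MF on the opposite strand, which had the higher mean count, 1539.7 against 904, so its value is uncertain where the strand setting of the counting is not known.

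Of the cutting part, both metallo-β-lactamase proteins fell and the scaffold did not pass. CPSF2 (ENSG00000165934, chromosome 14, 92121937 to 92172145, plus strand), the catalytically inactive homolog of the nuclease, had 100.1, 101 and 106 CPM with BARD1 siRNA, against 143, 130.0 and 132 CPM with control siRNA. It was 1.32-fold lower, the change with the lowest adjusted p in the 3′ end machinery (log2 fold change −0.40, SE 0.06, edgeR adjusted p = 1.09e-07). CPSF3 (ENSG00000119203), the endonuclease itself, had 60.9, 54.7 and 54.4 CPM with BARD1 siRNA, against 70.3, 60.8 and 74.7 CPM with control siRNA. Here the highest BARD1 siRNA library was slightly above control siRNA replicate 2, and the log2 fold change was −0.28 (SE 0.08, edgeR adjusted p = 0.00241). SYMPK averaged 150.3 ± 5.71 CPM with BARD1 siRNA and 148 ± 5.93 CPM with control siRNA (edgeR adjusted p = 0.775). CSTF2, CPSF2, CPSF3 and SYMPK are also known as parts of the complex that cuts replication-dependent histone pre-mRNAs. In a list of 7 further genes of histone 3′ end processing 3 fell and 1 rose, with a median of −0.19. SLBP, the stem-loop binding protein, fell by 0.26 and NPAT, the coactivator of histone genes, by 0.27 on the log2 scale, while ZNF473 rose by 0.23, a call lost in 10 of 16 alternatives. The number that fell was 1 without control siRNA replicate 3.

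CF I is a tetramer of the UGUA-binding subunit NUDT21 with CPSF6 or CPSF7, and its loss is known to shift many genes to proximal poly(A) sites. NUDT21 (ENSG00000167005, chromosome 16, 56429133 to 56452199, minus strand) had 269, 279.7 and 291 CPM in BARD1 siRNA libraries, against 331, 312 and 321 CPM in control siRNA libraries. CPSF6 (ENSG00000111605) had 132, 139.6 and 135 CPM with BARD1 siRNA, against 158, 152 and 154 CPM with control siRNA. Neither gene's groups overlapped, and each had a log2 fold change of −0.20 with SE 0.05 (edgeR adjusted p = 7.65e-04 for NUDT21 and 0.00292 for CPSF6). CPSF7 had 135, 139.9 and 132 CPM with BARD1 siRNA and 141, 137 and 147 CPM with control siRNA, and did not pass (edgeR adjusted p = 0.400). Of CF II, PCF11, which also acts in termination, averaged 58.4 ± 2.05 CPM with BARD1 siRNA and 58.7 ± 3.40 CPM with control siRNA. Its partner CLP1, an RNA kinase, averaged 16.8 ± 2.14 and 15.4 ± 1.31 CPM in the BARD1 siRNA and control siRNA groups (log2 fold changes −0.01 and 0.13). Gene counts do not show which poly(A) site a transcript used.

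The enzymes and proteins of the tail showed no change past the threshold. PAPOLA, the main nuclear poly(A) polymerase, had 265, 261 and 244 CPM with BARD1 siRNA and 279, 252 and 269 CPM with control siRNA. Its paralog PAPOLG had 24.3, 22.7 and 23.3 CPM with BARD1 siRNA and 20.2, 21.7 and 25.6 CPM with control siRNA. Both overlapped between groups. PABPC1, the main cytoplasmic poly(A)-binding protein, had 1153, 1144 and 1104 CPM with BARD1 siRNA and 1201, 1175 and 1235 CPM with control siRNA, a separation that did not pass (log2 fold change −0.09, SE 0.04, edgeR adjusted p = 0.114). It was called lower at −0.15 with either upper-quartile factors or library size alone, and at −0.11 without control siRNA replicate 2. PABPC4 had 259, 260.0 and 262 CPM with BARD1 siRNA and 273, 267 and 265 CPM with control siRNA (edgeR adjusted p = 0.519).

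PABPN1, the nuclear poly(A)-binding protein that sets tail length, was the gene whose control siRNA libraries differed most relative to their mean. It had 58.5, 60.3 and 56.8 CPM in BARD1 siRNA libraries, against 49.4, 57.7 and 31.5 CPM in control siRNA libraries. Control siRNA replicate 3 was far below the rest. The gene shares sequence with the readthrough transcript BCL2L2-PABPN1, so its value is uncertain. The log2 fold change of 0.34 (SE 0.24, edgeR adjusted p = 0.342) dropped to 0.12 without that library. PABPN1 was called higher in 4 of 16 alternatives, at adjusted p of 0.00760 with limma-voom, 0.0171 with edgeR without robust estimation, 0.0100 with the replicate block and 0.0247 without control siRNA replicate 2.

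The factors that link the cut to termination stayed within 0.10 of zero on the log2 scale. XRN2, the 5′ to 3′ exonuclease, averaged 176 ± 6.52 CPM with BARD1 siRNA and 172 ± 3.54 CPM with control siRNA. SSU72, a phosphatase of the polymerase tail, RBBP6, a ubiquitin ligase needed to activate the nuclease, and WDR82 had log2 fold changes of −0.05, −0.06 and −0.10. WDR82 was at 252, 244 and 258 CPM with BARD1 siRNA and 267, 267 and 274 CPM with control siRNA. This separation did not pass (edgeR adjusted p = 0.110), but with upper-quartile factors or scaling by library size it did, at 0.00535 and 0.00711 in edgeR. Among 18 further genes of 3′ ends and termination 8 rose and 2 fell, with a median of 0.09. With upper-quartile factors or library size alone 4 fell, and without BARD1 siRNA replicate 1 or 2 it was 1. CCNK, the cyclin of the elongation kinases CDK12 and CDK13, had a log2 fold change of 0.71. PPP1CB, a catalytic subunit of protein phosphatase 1, fell by 0.64.

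**Figure D3:**
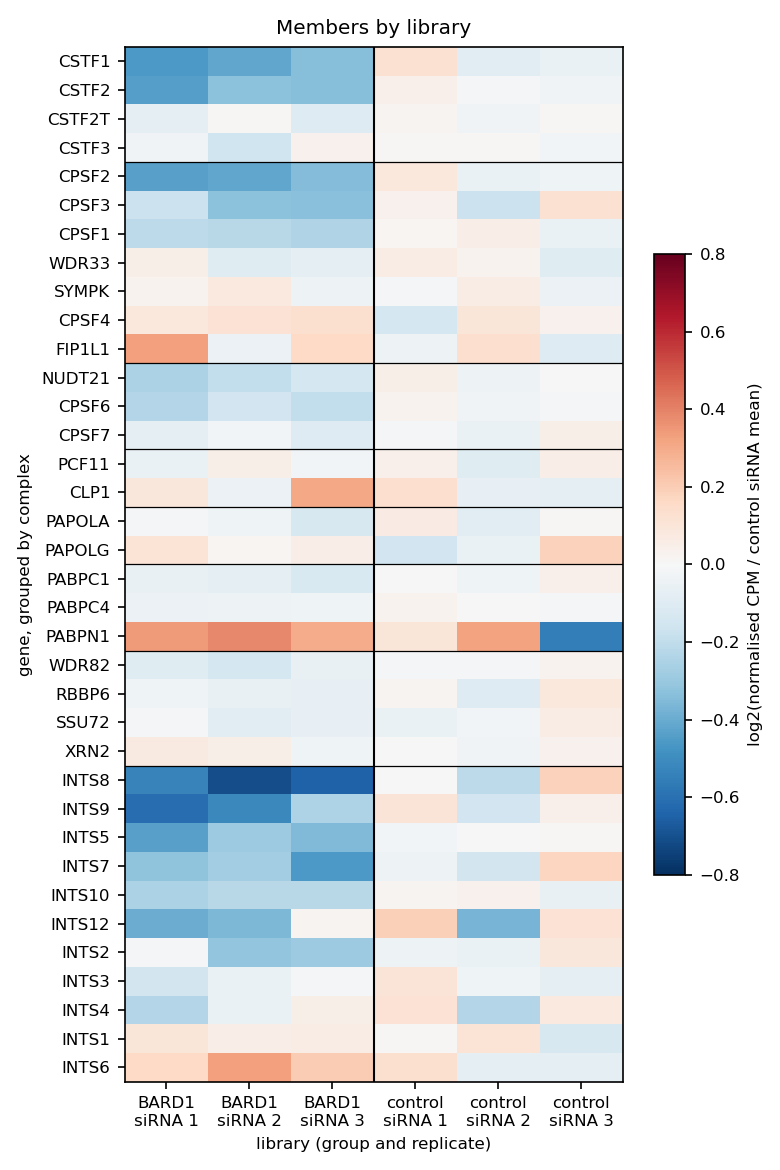
Log2 of each library's normalised CPM over the mean of the control siRNA libraries, for the 36 genes grouped by complex, with BARD1 siRNA libraries on the left. The 12 genes that fell are below that mean in all 3 BARD1 siRNA libraries, and PABPN1 is low in control siRNA replicate 3 alone.

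Of the 11 Integrator genes 5 fell and 1 rose, with a median log2 fold change of −0.23. INTS8 (ENSG00000164941, chromosome 8, 94813311 to 94881746, plus strand), the subunit that holds protein phosphatase 2A, changed most of all 36. It had 45.1, 39.9 and 41.7 CPM in BARD1 siRNA libraries, against 65.4, 56.4 and 74.2 CPM in control siRNA libraries. The groups were far apart, and the level was 1.55-fold lower (log2 fold change −0.63, SE 0.08, edgeR adjusted p = 1.51e-08). INTS8 overlaps the cyclin gene CCNE2 on the opposite strand, which had a mean of 220.2 counts beside 929.5 for INTS8 and a log2 fold change of −1.21. The share of reads that the counting may have exchanged between them was not tested. INTS5, which packs against INTS8 in the complex, had 18.4, 20.4 and 19.5 CPM with BARD1 siRNA, against 24.5, 25.0 and 25.1 CPM with control siRNA (log2 fold change −0.35, SE 0.11, edgeR adjusted p = 0.00502).

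INTS6, a subunit of the phosphatase module also known as DICE1, was the 1 gene of the 36 that rose. It had 35.7, 40.2 and 36.8 CPM in BARD1 siRNA libraries, against 35.0, 30.5 and 30.5 CPM in control siRNA libraries. The lowest BARD1 siRNA library was barely above the highest control siRNA library (log2 fold change 0.23, SE 0.09, edgeR adjusted p = 0.0366). This call was lost in 8 of 16 alternatives, among them DESeq2, at 0.0504, and upper-quartile factors, at 0.140, with adjusted p of 0.0201 to 0.194 over all of them. It was also lost without control siRNA replicate 2 or 3, at 0.105 and 0.118, and without BARD1 siRNA replicate 2 or 3, at 0.194 and 0.0630 in edgeR. Its paralog INTS6L was low, at 3.14, 3.79 and 3.62 CPM with BARD1 siRNA and 3.76, 2.88 and 3.83 CPM with control siRNA.

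The endonuclease module is formed by INTS4, INTS9 and INTS11. INTS9 (ENSG00000104299), the inactive partner of the nuclease, had 12.2, 13.0 and 15.7 CPM in BARD1 siRNA libraries, against 20.0, 16.7 and 19.1 CPM in control siRNA libraries. It fell without overlap (log2 fold change −0.45, SE 0.13, edgeR adjusted p = 0.00294). Its scaffold INTS4 was at −0.07 (edgeR adjusted p = 0.676). INTS11, the nuclease, which was taken from a list of further genes, had 139.7, 138.0 and 131 CPM with BARD1 siRNA and 134, 126 and 120.4 CPM with control siRNA (log2 fold change 0.10, edgeR adjusted p = 0.151).

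In the backbone and the outer modules some subunits fell and others did not pass. INTS7, a backbone subunit, had 35.1, 36.1 and 31.9 CPM with BARD1 siRNA, against 42.5, 39.6 and 49.3 CPM with control siRNA (log2 fold change −0.35, SE 0.09, edgeR adjusted p = 0.00112). INTS10, of the module with INTS13 and INTS14, had 52.5, 53.5 and 53.7 CPM with BARD1 siRNA, against 63.5, 63.9 and 60.1 CPM with control siRNA (log2 fold change −0.23, SE 0.07, edgeR adjusted p = 0.00826). Both were separate between groups. INTS13 fell as well, by 0.34 (edgeR adjusted p = 5.34e-05), and INTS14 had −0.13 and did not pass. INTS1, the largest scaffold, had 0.07 and INTS2, which binds it, −0.20. INTS2 missed the threshold at an edgeR adjusted p of 0.0689 and passed it under upper-quartile factors, library size alone and without BARD1 siRNA replicate 1, at −0.27, −0.26 and −0.31. INTS12, a PHD-finger protein, had −0.23 and did not pass (edgeR adjusted p = 0.210), or −0.39 and an adjusted p of 0.0320 without control siRNA replicate 2. It overlaps GSTCD and NPNT, both with higher mean counts, so its value is uncertain. GSTCD had a log2 fold change of −0.45 (edgeR adjusted p = 2.17e-04) and NPNT of −0.06. Exchange of reads with INTS12 was not tested. INTS1 was called higher without control siRNA replicate 2, at 0.13.

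INTS3 also belongs to SOSS, a single-stranded DNA sensor of double-strand break repair that is built from INTS3, INIP and either NABP1 or NABP2. INTS3 had 41.2, 44.1 and 45.2 CPM with BARD1 siRNA and 49.1, 44.7 and 43.4 CPM with control siRNA, with overlap and no call (log2 fold change −0.07, edgeR adjusted p = 0.523). INIP had 25.0, 26.6 and 24.6 CPM with BARD1 siRNA, against 45.3, 36.5 and 39.4 CPM with control siRNA (log2 fold change −0.67, edgeR adjusted p = 4.93e-08). The DNA-binding subunits moved in opposite directions. NABP2 had 62.5, 70.0 and 65.1 CPM with BARD1 siRNA, against 81.8, 87.0 and 89.8 CPM with control siRNA, and NABP1 had 53.2, 53.9 and 54.2 CPM with BARD1 siRNA, against 35.1, 35.1 and 37.7 CPM with control siRNA. The log2 fold changes were −0.39 for NABP2 and 0.58 for NABP1 (edgeR adjusted p = 3.51e-06 and 3.24e-08). In the whole list of 10 further Integrator and Integrator-bound genes 4 fell and 1 rose, with a median of −0.06. PPP2R1A, the scaffold of protein phosphatase 2A, fell by 0.13 on the log2 scale, and its catalytic subunit PPP2CA did not pass.

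Several of the genes that fell start beside another gene. Of the 36, 8 had a tested protein-coding neighbour on the opposite strand whose annotated start lay within 1000 bases, 6 of them among the genes that fell. The neighbour also fell in 4 of these 6, CSTF1, CPSF2, CPSF3 and INTS7, and rose in 1, INTS9. Counted from each gene, such pairs of all tested protein-coding genes held 510 entries for a gene called lower and 1488 for another gene. The 6 of 8 was not tested against these numbers. In all such pairs, 35.3% of the neighbours of a gene that fell were lower and 11.4% higher. Of the neighbours of other genes 22.2% were lower and 21.0% higher. By the GENCODE starts, CSTF1 begins 34 bases from AURKA, which encodes the mitotic kinase Aurora A. AURKA had 75.9, 73.3 and 71.5 CPM in BARD1 siRNA libraries, against 137, 137 and 132 CPM in control siRNA libraries. Its groups lay far apart (log2 fold change −0.88, SE 0.06, edgeR adjusted p = 5.30e-18). INTS7 starts 11 bases from DTL, the substrate receptor of a replication-coupled ubiquitin ligase, at 68.2, 71.0 and 67.6 CPM with BARD1 siRNA, against 94.4, 88.8 and 91.7 CPM with control siRNA (log2 fold change −0.41). CPSF2 starts 20 bases from NDUFB1, a subunit of respiratory complex I, which fell by 0.45, and CPSF3 starts 21 bases from ITGB1BP1, which fell by 0.19 with overlapping groups. The ITGB1BP1 call was lost in 4 of 16 alternatives: with DESeq2 (adjusted p = 0.0565), without control siRNA replicate 1 (0.195) or 2 (0.0510) and without BARD1 siRNA replicate 1 (0.217). In those alternatives 3 of the 6 neighbours fell. The neighbour of INTS9, HMBOX1, rose by 0.68 on the log2 scale, at 11.3, 10.6 and 12.6 CPM with BARD1 siRNA, against 7.51, 7.69 and 6.32 CPM with control siRNA. These pairs were looked up, and their alternatives chosen, after the values of the 36 genes were known.

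**Figure D4:**
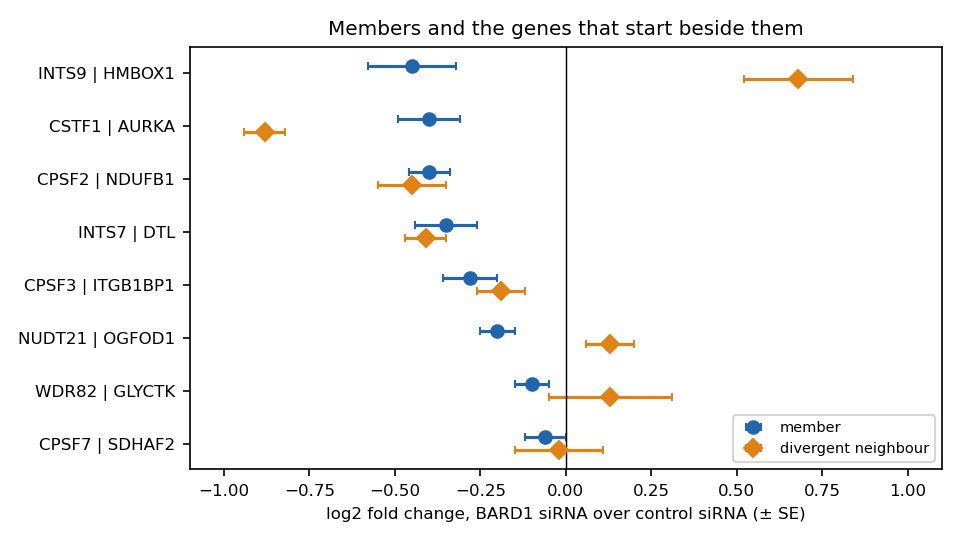
Log2 fold change with standard error for the 8 genes that start within 1000 bases of an opposite-strand neighbour (circles) and for that neighbour (diamonds). In the pairs of CSTF1, CPSF2, INTS7 and CPSF3 both genes lie below 0, and INTS9 and HMBOX1 lie on opposite sides.

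Promoter windows of 250 bases before to 50 after the annotated start were found in RefSeq (GRCh38.p14) for 29 of the 36 genes, the others being CPSF1, PABPC1, PABPC4, INTS5, INTS8, INTS9 and INTS10. The windows of CSTF1, CPSF2 and INTS7 are shown as those of the 3 genes with the largest changes among the 4 whose neighbour fell too, and that of CSTF2 because its paralog CSTF2T did not pass. They lie at chr20:56392129-56392428 (plus strand), chr14:92121719-92122018 (plus), chr1:212035508-212035807 (minus) and chrX:100820141-100820440 (plus). Letters are in the direction of the named gene, and capitals mark matches on either strand to motifs of cell cycle promoters and to a few common elements. These were E2F (TTTGGCGC, TTTCGCGC, TTTCCCGC or TTTGGCGG), the CCAAT box of NF-Y, CHR (TTTGAA or TTTAAA), the NRF1 palindrome and CRE (TGACGTCA).
CSTF1: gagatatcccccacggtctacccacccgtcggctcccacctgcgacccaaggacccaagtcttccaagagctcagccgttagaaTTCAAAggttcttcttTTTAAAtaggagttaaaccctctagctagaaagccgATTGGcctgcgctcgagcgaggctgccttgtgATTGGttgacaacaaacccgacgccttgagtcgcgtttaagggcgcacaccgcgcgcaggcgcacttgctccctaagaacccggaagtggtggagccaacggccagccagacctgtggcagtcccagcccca
CPSF2: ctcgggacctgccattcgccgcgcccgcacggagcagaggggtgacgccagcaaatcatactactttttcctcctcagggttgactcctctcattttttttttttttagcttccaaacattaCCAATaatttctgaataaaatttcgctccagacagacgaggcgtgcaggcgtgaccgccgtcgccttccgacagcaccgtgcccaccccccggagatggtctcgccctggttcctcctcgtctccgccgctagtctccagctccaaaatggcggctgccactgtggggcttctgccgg
INTS7: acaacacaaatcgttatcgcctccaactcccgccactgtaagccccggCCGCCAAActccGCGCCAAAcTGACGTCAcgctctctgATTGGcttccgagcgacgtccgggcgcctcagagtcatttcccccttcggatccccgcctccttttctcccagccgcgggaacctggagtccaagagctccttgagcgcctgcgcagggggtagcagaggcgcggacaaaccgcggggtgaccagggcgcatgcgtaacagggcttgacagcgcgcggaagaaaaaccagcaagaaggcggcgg
CSTF2: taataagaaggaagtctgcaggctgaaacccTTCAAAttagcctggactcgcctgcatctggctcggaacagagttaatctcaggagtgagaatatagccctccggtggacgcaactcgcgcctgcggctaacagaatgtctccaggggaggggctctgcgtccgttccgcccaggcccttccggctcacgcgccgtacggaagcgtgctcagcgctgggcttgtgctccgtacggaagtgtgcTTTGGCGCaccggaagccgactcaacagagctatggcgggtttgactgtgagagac
Counted from the 5′ end of the RefSeq window, the GENCODE start of AURKA lies at position 209 of the CSTF1 window, NDUFB1 at 199 of that of CPSF2 and DTL at 255 of that of INTS7. The CSTF1 window holds a pair of CCAAT boxes and a pair of CHR letters, all on the side of the AURKA start that AURKA transcribes. That of INTS7 holds a pair of E2F matches, a CRE and a CCAAT box, and that of CPSF2 a CCAAT box. These too lie on the side of the DTL and NDUFB1 starts that those neighbours transcribe. The window of CSTF2 has an E2F and a CHR match. An E2F match stood in 3 of the 7 genes that fell and have a window, CSTF2, CPSF3 and INTS7, in 2 of the other 22, and in 5.65% of windows of 10145 tested protein-coding genes. A CCAAT box stood in 5 of the 7, in 7 of the 22 and in 36.4% of all windows. For CHR the numbers were 2 of 7, 4 of 22 and 15.4%, for CRE 1 of 7, 4 of 22 and 3.20%, and for NRF1 0 of 7, 1 of 22 and 2.30%. A match is a run of letters and does not show that a factor binds there. The windows were split by the calls, so after the values were known, and the shares were not tested. CPSF1, INTS5, INTS8, INTS9 and INTS10 also fell but had no window.

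By position, 5 of the 36 genes lie on chromosome 8, and 4 of them fell: CPSF1, INTS8, INTS9 and INTS10. The fifth, PABPC1, did not pass. Of the 544 genes tested on that chromosome 21.3% were called lower and 24.3% higher. This grouping was noticed after the values were seen.

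Levels of different genes were set per kilobase of the gene length in the table. That length, 25509 bases for INTS6 and 4800 for CSTF1, may differ from that of the transcript expressed, so the order depends on it. On that scale PABPC1 was highest, at 239 CPM per kilobase with BARD1 siRNA and 253 with control siRNA. NUDT21 came next, at 47.0 with BARD1 siRNA and 54.0 with control siRNA, followed by XRN2 at 51.1 with BARD1 siRNA and 50.1 with control siRNA, so these neighbours change places between the groups. Integrator genes were mostly in the lower part of the order: INTS1 had 26.6 CPM per kilobase with BARD1 siRNA and 25.3 with control siRNA, while the other 10 lay between 1.47 and 7.75 with BARD1 siRNA and between 1.26 and 9.10 with control siRNA. INTS6 was lowest of all. Within CstF, CSTF2 was highest at 16.0 CPM per kilobase with BARD1 siRNA and 20.8 with control siRNA, and CSTF1 lowest at 6.87 with BARD1 siRNA and 9.08 with control siRNA. CSTF3 lay between them at 13.3 with BARD1 siRNA and 13.7 with control siRNA, and CSTF2T had 9.01 with BARD1 siRNA and 9.39 with control siRNA. By CPM alone CSTF1 was above CSTF2T with control siRNA (43.6 against 38.5) and below it with BARD1 siRNA (33.0 against 37.0).

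**Figure D5:**
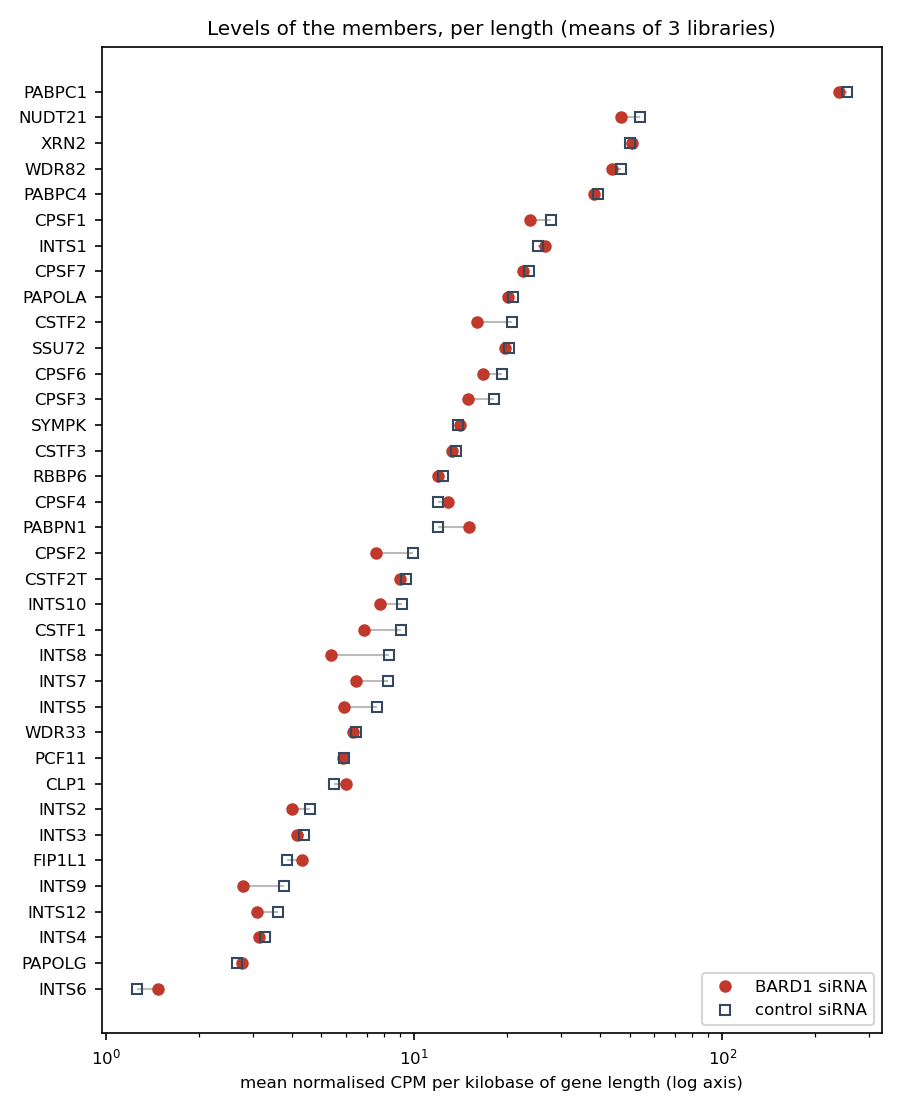
Mean normalised CPM per kilobase of gene length in BARD1 siRNA (filled circles) and control siRNA libraries (open squares), on a log axis, ordered by the control siRNA level. The order runs from PABPC1 at 239 and 253 to INTS6 at 1.47 and 1.26 CPM per kilobase.

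Other genes that act on the same RNAs went in both directions. Of 10 genes for transcription of small nuclear RNA genes 3 rose and 1 fell (median −0.01). The elongation factor gene ELL rose by 0.76 on the log2 scale and SNAPC1, a subunit of the factor that binds these promoters, by 0.26. POU2F1, which encodes OCT1, fell by 0.27, and without control siRNA replicate 2, or with upper-quartile factors or library size alone, 2 genes fell. The number that rose was 2 with upper-quartile factors, library size alone or DESeq2. It was also 2 without replicate 1 or 3 of either group. Of 18 genes of poly(A) tail shortening 6 rose and 3 fell (median 0.08). BTG1 and BTG2, antiproliferative proteins that recruit the CCR4-NOT deadenylase, rose by 1.68 and 1.15, and CNOT10, a subunit of that complex, fell by 0.53. Of 18 genes of the nuclear RNA exosome and its adaptors 5 fell and 2 rose (median −0.09), and 3 fell without BARD1 siRNA replicate 1 or 3. The exosome core genes EXOSC5 and EXOSC8 fell by 0.45 and 0.31, and ZFC3H1, which connects polyadenylated nuclear RNA to the exosome, rose by 0.48.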

How the data were processed

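Poly(A)-selected RNA of 6 cultures was sequenced. The authors deposited raw read counts per gene, without normalization, and each gene's length in bases. HISAT2, CASAVA and GRCh38 (hg38) are named in the submitters' processing notes, while tool versions, the counting program and its use of strand are not stated there. All 36 genes have the same name, start and end in GENCODE release 29. Of them 13 overlap another tested gene, and for 2, CPSF4 and INTS12, a partner had the higher mean count. Pseudogene rows named after a member held at most 1.59% of its counts, in INTS4.

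Counts were tested with edgeR 4.0.16 (R 4.3.3; robust glmQLFit and glmQLFTest, TMM factors, group alone) on the 15271 genes that filterByExpr kept of 29419 with a count, with Benjamini-Hochberg adjustment over all of them and a threshold of 0.05. SE was derived from the F statistic. Log2 ratios of paralogs used counts plus 0.5. Replicates of a group differed by at least 3.29 times the counting variance, so none was taken as a repeat deposit. Alternatives were other scalings (RLE, upper-quartile, library size alone), DESeq2 1.42.0, limma-voom (limma 3.58.1), no filter, 1 CPM in 3 libraries, protein-coding genes only, no robust estimation, a replicate block and leaving out each library. The script was tested on simulated data. Members and lists were chosen with earlier results of these data known. By rule, values per library were given for BARD1, CSTF1, called members and paralog pairs, and up to 3 called genes were named per further list. After values were seen, values per library were added for PABPN1, WDR82, INTS3, INTS11, INIP, NABP1, NABP2 and 3 of the neighbouring genes. The neighbouring genes and other genes of those lists were named then. Some genes of the further lists are not reported here.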

Additional observations from a re-analysis of the deposited data

How the results depend on the processing

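All 12 genes that fell did so in each of the 16 alternatives, while INTS6 kept its call in 8. Of 576 values of single genes under an alternative, 540 kept direction and side of the threshold, 8 lost the call, 14 gained one and 14 turned sign, all 14 in genes that did not pass. The number of the 36 genes called higher, 1, became 0 with upper-quartile factors, library size alone, DESeq2 or no filter, and 2 with limma-voom, without robust estimation or with the replicate block. In cleavage-polyadenylation, 0 became 1 with limma-voom, without robust estimation or with the block. In Integrator, 1 became 0 with upper-quartile factors, library size alone, DESeq2 or no filter. Leaving out a library gave 0 to 2 for all 36, 0 to 1 for cleavage-polyadenylation and 0 to 1 for Integrator. Members called lower ranged from 12 to 15.

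The signs that turned were SYMPK at −0.04 under both upper-quartile factors and library size alone, XRN2 at −0.04 and −0.03, and PAPOLG at −0.01 and −0.00 under the same settings. Leaving out 1 library in turn gave ranges of −0.01 to 0.05 for SYMPK, −0.06 to 0.02 for PCF11, −0.02 to 0.16 for PAPOLG, −0.09 to 0.00 for CSTF3 and −0.17 to 0.00 for INTS4. Upper-quartile factors moved the median of all genes to −0.073 and library size alone to −0.067, beside −0.007. Over all tested genes 3355 were higher and 3107 lower, or 2815 and 3975 with upper-quartile factors and 2852 and 3906 with library size alone. The replicate block gave 12 lower members and no call was lost. Same-numbered libraries did not deviate together (correlations −0.00906, −0.0149 and −0.0218), so no pairing by number was seen. These values cannot show whether same-numbered cultures were handled together.
Leaving out 1 library gave differences in the log2 ratio of paralogs of −0.35 to −0.29 for CSTF2 over CSTF2T, −0.16 to −0.12 for CPSF6 over CPSF7, −0.21 to −0.01 for PAPOLA over PAPOLG, −0.06 to −0.02 for PABPC1 over PABPC4 and 0.11 to 0.31 for INTS6 over INTS6L. Among the further lists, the line markers that fell numbered 1 without BARD1 siRNA replicate 2 in place of 3.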
